A study of Mus musculus with 24 samples.

Results

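The genes described here are 10 genes with which a muscle fibre receives a nerve signal and turns it into calcium release. They are Chrna1, Chrnb1, Chrnd and Chrng, the subunit genes of the muscle acetylcholine receptor, Musk, Cacna1s, Cacng1, Ryr1, Atp2a1 and Casq2. A probe set (the group of short probes that reads 1 transcript on the array) was taken as a member where the platform's annotation gave it 1 gene only, with 1 of these symbols. All 10 genes had a probe set, 12 in all, out of 12393 genes and 20380 such probe sets measured. Chrng alone had several (3), and the brightest of them on average was used.

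RNA of C2C12 cells, an established line of mouse skeletal muscle precursors (myoblasts), was hybridised to 24 Affymetrix mouse arrays in 8 groups of 3. The cells had received siRNA against IFT88, whose product carries cargo along cilia, or a negative control siRNA. Labels call the first IFT88KD, and the second are called control cells here. With each siRNA there were 4 states. Proliferating cells were attached in DMEM with 20% FBS, quiescent cells (G0) were in suspension in the same medium, replated cells (R2) were taken 2 h after suspended cells were returned to a surface in it, and differentiating cells (D48) had been moved at high confluence to DMEM with 2% NHS for 48 h. All groups are 1 cell line without a nerve, so the levels are those of muscle cells in culture. The arrays read RNA from whole cultures, so fewer muscle-like cells and less RNA per cell cannot be told apart. The labels do not say that the 3 arrays of a group came from separate cultures, and p-values then measure only the spread between these arrays.

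In embryonic muscle the acetylcholine receptor is built of alpha, beta, gamma and delta subunits, and the gamma subunit is later replaced by epsilon. Musk is the receptor kinase through which nerve-derived agrin gathers receptors under the nerve ending. Depolarisation is sensed by the dihydropyridine receptor, whose pore is Cacna1s, which opens the ryanodine receptor Ryr1 in the sarcoplasmic reticulum. Atp2a1 pumps the calcium back and calsequestrins such as Casq2 hold it there. Many muscle genes, receptor subunits among them, are switched on by myogenic factors that bind E-boxes, short DNA motifs of the form CANNTG.

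The values are log2 expression values, so a difference of 1 is a doubling, and they compare 1 gene between arrays but not 1 gene with another. The arrays of a state had nearly equal medians, but the states did not: array medians were 2.92 to 2.98 in replated cells, 3.58 to 3.62 in proliferating cells, 3.68 to 3.78 in differentiating cells and 3.79 to 3.85 in quiescent cells. Genes were tested if at least 3 arrays had them above that array's 40th percentile. There were 8597 such genes, all 10 members among them. Chrna1, Chrnb1, Chrng, Musk, Cacng1 and Atp2a1 lay above it on all 24 arrays, Casq2 and Ryr1 on 23, Chrnd on 21 and Cacna1s on 18. Ift88 itself, the target of the siRNA, had means of 4.08 ± 0.31 in control and 3.55 ± 0.07 in IFT88KD proliferating cells (SD, n = 3 here and for all group means), 4.31 ± 0.12 and 3.63 ± 0.24 in quiescent, 2.63 ± 0.28 and 2.04 ± 0.05 in replated, and 3.80 ± 0.11 and 3.79 ± 0.25 in differentiating cells. Every IFT88KD array was thus below every control array in the first 3 states, and the differentiating arrays overlapped. The proliferating arrays numbered 3 stood apart for the members: all 10 lay above their group mean on that array with either siRNA, by a median of 0.34 in control and 0.44 in IFT88KD cells.

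Promoters from RefSeq (GRCm38.p6) were found for 8 of the 10 genes, all but Chrnd and Cacng1, each running from 250 bases before the start site to 50 after it. The 4 printed here belong to the pair of genes that fell together in suspension (Chrna1 and Chrnb1) and to a pair that rose there (Chrng and Casq2). Capitals mark matches to CANNTG, which reads the same way on both strands as a pattern. Chrna1 lies at chr2:73580289-73580588 on the minus strand, Chrnb1 at chr11:69795888-69796187 on the minus strand, Chrng at chr1:87205561-87205860 on the plus strand and Casq2 at chr3:102086165-102086464 on the plus strand.
Chrna1: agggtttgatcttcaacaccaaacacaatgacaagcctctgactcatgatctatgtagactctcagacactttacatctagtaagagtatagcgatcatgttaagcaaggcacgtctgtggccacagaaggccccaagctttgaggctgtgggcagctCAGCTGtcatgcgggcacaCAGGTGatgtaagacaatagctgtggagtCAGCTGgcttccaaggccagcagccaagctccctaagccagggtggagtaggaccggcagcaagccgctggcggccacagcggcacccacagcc
Chrnb1: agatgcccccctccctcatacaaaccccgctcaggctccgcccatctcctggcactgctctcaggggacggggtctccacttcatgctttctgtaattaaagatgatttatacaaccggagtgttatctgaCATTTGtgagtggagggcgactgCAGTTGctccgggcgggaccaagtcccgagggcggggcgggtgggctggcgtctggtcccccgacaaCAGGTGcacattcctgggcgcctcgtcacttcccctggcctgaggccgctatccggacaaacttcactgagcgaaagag
Chrng: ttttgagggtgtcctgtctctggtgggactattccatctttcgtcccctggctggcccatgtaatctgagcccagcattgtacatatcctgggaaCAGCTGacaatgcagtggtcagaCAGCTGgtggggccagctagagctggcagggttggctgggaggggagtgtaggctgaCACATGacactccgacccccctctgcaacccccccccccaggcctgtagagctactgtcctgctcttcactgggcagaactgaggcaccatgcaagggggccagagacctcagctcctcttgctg
Casq2: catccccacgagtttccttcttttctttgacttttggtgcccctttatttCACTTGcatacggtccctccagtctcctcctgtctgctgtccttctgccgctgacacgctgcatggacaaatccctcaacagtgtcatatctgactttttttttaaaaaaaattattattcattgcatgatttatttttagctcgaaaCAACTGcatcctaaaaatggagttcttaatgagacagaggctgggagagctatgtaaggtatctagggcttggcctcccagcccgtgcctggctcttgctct

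The Chrna1 promoter held 3 matches, at -92, -73 and -44 from the start site (position of the first base), of which the first and the last were CAGCTG and the middle was CACCTG on the other strand. Chrnb1 also held 3, at -119, -96 and -29, without a CAGCTG. Chrng held 3, at -155, -132 and -75, of which the first 2 were CAGCTG. Casq2 held 2, at -200 and -52. Both kinds of promoter, of genes that fell and of genes that rose in suspension, thus carried the pattern. Among all 8 promoters, 7 had at least 1 CANNTG, which 72.3% of 32851 mouse promoters of this length had, and the Ryr1 window had none. CAGCTG, which is 1 form of CANNTG, was in 5 of the 8 against 16.3% of all, and the promoters of Chrna1 and Chrng each held 2, where 1.9% of all held 2 or more. CACCTG, another form of it, was in 2 of the 8 against 20.2%. CCGGAA, a motif of ETS factors such as GABP, was searched on both strands and was in 0 of the 8 windows against 14.9% of all. A match is a description of the letters and not a bound site.

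**Figure D1:**
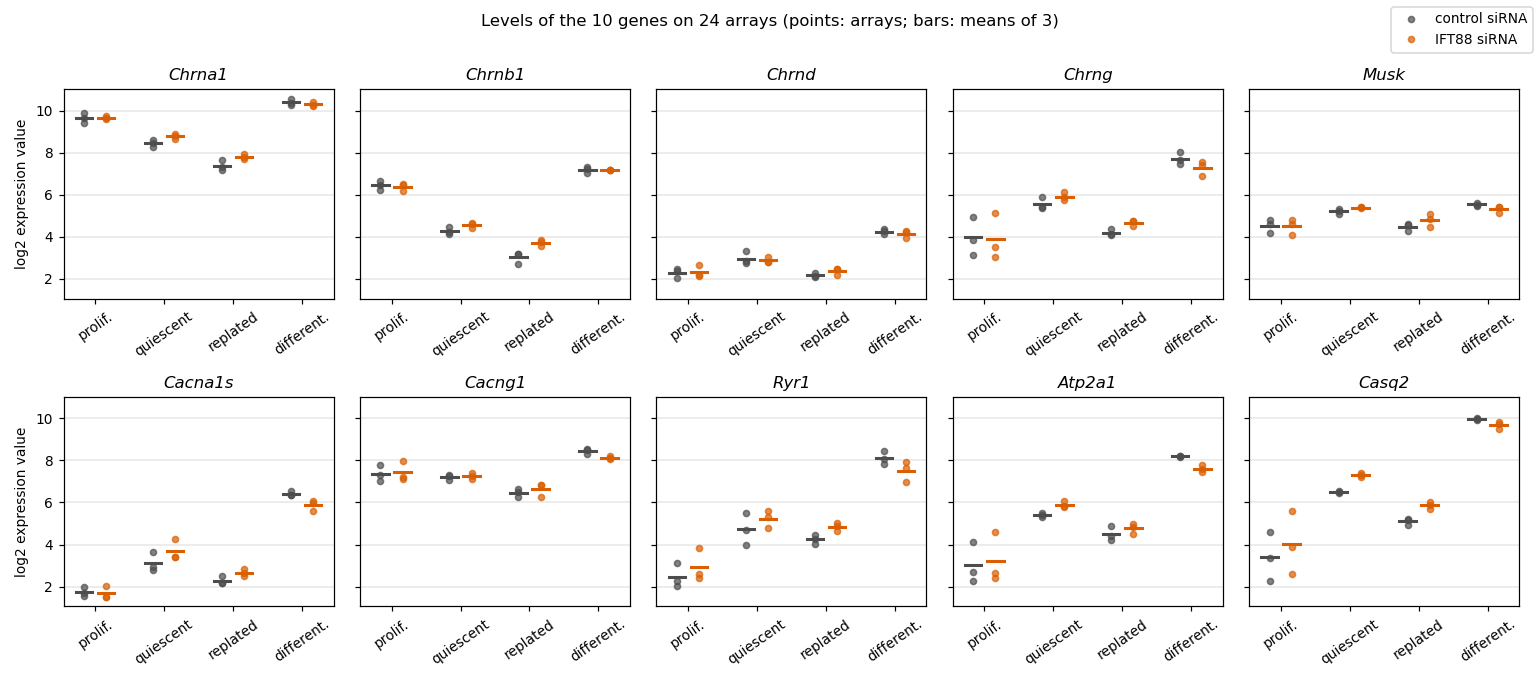
Log2 expression value (vertical axis) of each of the 10 genes on every array, by culture state, with control siRNA in grey and IFT88 siRNA in orange; bars are means of 3 arrays. The differentiating groups stood highest for all 10 genes apart from Musk, whose IFT88KD quiescent mean of 5.39 lay above its IFT88KD differentiating mean of 5.33, while Chrna1 and Chrnb1 fell from proliferating to quiescent cells.

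The order of the 8 groups differed between members. Among the receptor subunits, the differentiating groups of Chrna1 led with means of 10.40 ± 0.16 in control and 10.30 ± 0.11 in IFT88KD cells, whose arrays overlapped. The proliferating means followed at 9.67 ± 0.08 in IFT88KD and 9.65 ± 0.24 in control cells, and then came quiescent IFT88KD (8.77 ± 0.11), quiescent control (8.45 ± 0.15), replated IFT88KD (7.82 ± 0.13) and replated control cells (7.38 ± 0.25), with no overlap between neighbours from there on. Chrnb1 had the same order of states, with differentiating means of 7.19 ± 0.13 and 7.18 ± 0.00, proliferating means of 6.45 ± 0.21 and 6.38 ± 0.19, quiescent means of 4.28 ± 0.16 and 4.57 ± 0.14 and replated means of 3.03 ± 0.28 and 3.71 ± 0.14 in control and IFT88KD cells. Both alpha and beta subunits were therefore lowest after replating, whose arrays were also lower as a whole.

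Chrng and Chrnd followed another order, with quiescent cells next after differentiating cells. Chrng had control and IFT88KD means of 7.72 ± 0.28 and 7.28 ± 0.34 in differentiating, 5.57 ± 0.28 and 5.92 ± 0.20 in quiescent, 4.20 ± 0.13 and 4.66 ± 0.13 in replated and 3.98 ± 0.90 and 3.89 ± 1.12 in proliferating cells. Chrnd had 4.25 ± 0.10 and 4.15 ± 0.19 in differentiating and 2.97 ± 0.30 and 2.88 ± 0.14 in quiescent cells, and its other 4 groups, at 2.16 to 2.37, overlapped with their neighbours. Musk spanned the narrowest range, from 5.54 ± 0.07 in differentiating control cells through 5.39 ± 0.02, 5.33 ± 0.15 and 5.22 ± 0.11 in quiescent IFT88KD, differentiating IFT88KD and quiescent control cells to 4.80 ± 0.33, 4.53 ± 0.33, 4.50 ± 0.36 and 4.48 ± 0.17 in the remaining 4, replated IFT88KD, proliferating control, proliferating IFT88KD and replated control cells. Neighbours in that order overlapped except below the differentiating control group and below the quiescent control group.

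Cacna1s, Ryr1, Atp2a1 and Casq2 all had differentiating control above differentiating IFT88KD cells and the proliferating groups at the bottom. Cacna1s had 6.42 ± 0.11 and 5.88 ± 0.24 in differentiating, 3.13 ± 0.45 and 3.69 ± 0.47 in quiescent, 2.28 ± 0.19 and 2.66 ± 0.16 in replated and 1.75 ± 0.22 and 1.70 ± 0.30 in proliferating control and IFT88KD cells. Ryr1 had 8.10 ± 0.31 and 7.51 ± 0.49 in differentiating and 2.47 ± 0.56 and 2.94 ± 0.77 in proliferating cells, and between them its quiescent (4.72 ± 0.75 and 5.23 ± 0.41) and replated groups (4.25 ± 0.21 and 4.84 ± 0.19) overlapped with their neighbours. Atp2a1 and Casq2 kept quiescent above replated cells without overlap. Atp2a1 had 5.40 ± 0.09 and 5.90 ± 0.15 in quiescent and 4.50 ± 0.35 and 4.78 ± 0.24 in replated cells, and Casq2 6.50 ± 0.06 and 7.30 ± 0.09 in quiescent and 5.11 ± 0.14 and 5.86 ± 0.16 in replated cells. At the ends of their ranges, IFT88KD means were 7.61 ± 0.15 and 9.68 ± 0.19 in differentiating and 3.22 ± 1.19 and 4.02 ± 1.51 in proliferating cells for Atp2a1 and Casq2. Cacng1 differed from them, as its proliferating (7.36 ± 0.38 and 7.45 ± 0.47) and quiescent groups (7.21 ± 0.14 and 7.26 ± 0.13) overlapped and its replated groups were lowest (6.47 ± 0.19 and 6.63 ± 0.31), under differentiating groups at 8.46 ± 0.13 and 8.12 ± 0.08.

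Differentiation raised all 10 genes. In control cells 10 of 10 were higher at 48 h than in proliferating cells (limma, Benjamini-Hochberg adjusted p under 0.05 over all genes tested; 24.5% of all genes were called higher), with a median change of 2.85 against -0.06 for all genes. In all 10 every differentiating array lay above every proliferating array (27.1% of all genes). In IFT88KD cells 10 of 10 were higher too (22.6% of all genes), with a median of 2.62 against -0.05. In control cells Casq2, Ryr1, Atp2a1 and Cacna1s changed most and Chrna1 and Chrnb1 least, as the values below show.

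Casq2, which encodes the calsequestrin of heart and slow muscle, stood at 2.25, 3.34 and 4.60 on the control proliferating arrays (numbers 1, 2 and 3) and at 10.03, 9.99 and 9.90 on the control differentiating arrays. Its change was 6.58 (SE 0.49, 95.5-fold, limma adjusted p = 5.1e-10). The differentiating arrays lay within a narrow band far above a proliferating group that spread widely, and the change was 7.18 without the 2 proliferating arrays numbered 3. Its probe set is of the s_at kind, which can match more than 1 transcript. Ryr1, the calcium release channel of skeletal muscle, went from 2.03, 2.29 and 3.10 to 8.42, 8.06 and 7.82, a change of 5.63 (SE 0.37, adjusted p = 5.19e-11). Atp2a1, the calcium pump of fast muscle, went from 2.27, 2.70 and 4.14 to 8.22, 8.22 and 8.18, a change of 5.17 (SE 0.41, adjusted p = 1.33e-09). In each the lowest differentiating array exceeded the highest proliferating array by more than 3 log2 units. The control proliferating arrays began near the filter, at percentiles 39.9 to 58.4 for Casq2, 37.5 to 46.5 for Ryr1 and 40.1 to 54.2 for Atp2a1. The size of these changes is therefore uncertain.

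Cacna1s, the pore and voltage sensor of the dihydropyridine receptor, stood at 1.57, 1.69 and 1.99 on control proliferating arrays and at 6.55, 6.35 and 6.36 on control differentiating arrays, a change of 4.67 (SE 0.22, limma adjusted p = 3.41e-13). On all 6 proliferating arrays it lay under the 40th percentile, so the size of the change is uncertain. Cacng1, the gamma subunit of the same channel, was already well above that percentile in proliferating cells, at 7.02, 7.30 and 7.76, and reached 8.51, 8.31 and 8.55. Its change was 1.10 (SE 0.20, adjusted p = 7.46e-05), and the 2 groups did not overlap. The 2 subunits of 1 channel therefore changed by different amounts. In IFT88KD cells the change of Cacng1 was 0.67 (SE 0.20, adjusted p = 0.00745), and without IFT88KD proliferating replicate 1 it was 0.51 with an adjusted p of 0.0549.

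Among the receptor subunits, Chrng changed by 3.74 (SE 0.40, limma adjusted p = 8.3e-08), from 3.15, 3.85 and 4.94 to 8.02, 7.68 and 7.46. Chrnd, the delta subunit gene, changed by 1.96 (SE 0.16, adjusted p = 1.4e-09), from 2.04, 2.47 and 2.38 to 4.26, 4.15 and 4.35. The arrays of the 2 states did not overlap for either gene. Chrna1, whose product carries the main part of the acetylcholine binding site, went from 9.41, 9.66 and 9.89 to 10.58, 10.27 and 10.35, and Chrnb1, the beta subunit gene, from 6.22, 6.63 and 6.49 to 7.31, 7.04 and 7.20. Their changes were 0.75 (SE 0.13) and 0.74 (SE 0.14), or 1.68-fold and 1.67-fold, the smallest of the 10. Musk changed by 1.01 (SE 0.17, adjusted p = 4.51e-05), from 4.17, 4.63 and 4.80 to 5.53, 5.48 and 5.62.

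In IFT88KD cells the changes over the same interval were 0.64 for Chrna1, 0.81 for Chrnb1, 1.84 for Chrnd, 3.39 for Chrng and 0.83 for Musk. They were 4.19 for Cacna1s, 4.57 for Ryr1, 4.39 for Atp2a1 and 5.66 for Casq2 (SE 0.22 to 0.49). All 10 exceeded the spread between arrays with either siRNA, and without the 2 proliferating arrays numbered 3 the counts were again 10 of 10.

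The other probe sets of Chrng told less. One lay under the 40th percentile on all 24 arrays, with group means of 0.81 to 1.26. Another lay above it only on the 6 differentiating arrays, with means of 4.06 ± 1.05 in control and 3.51 ± 0.98 in IFT88KD cells. It changed by 2.93 (SE 0.40, limma adjusted p = 3.47e-06) from proliferating to differentiating control cells and by 0.56 (adjusted p = 0.217) from proliferating to quiescent ones. The rise of Chrng on differentiation was thus seen by 2 of 3 probe sets, and that in suspension, described next, by 1. Chrne, the subunit that replaces gamma in adult muscle, had group means of 1.17 to 1.61, all under the filter (it was chosen after its values were seen).

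**Figure D2:**
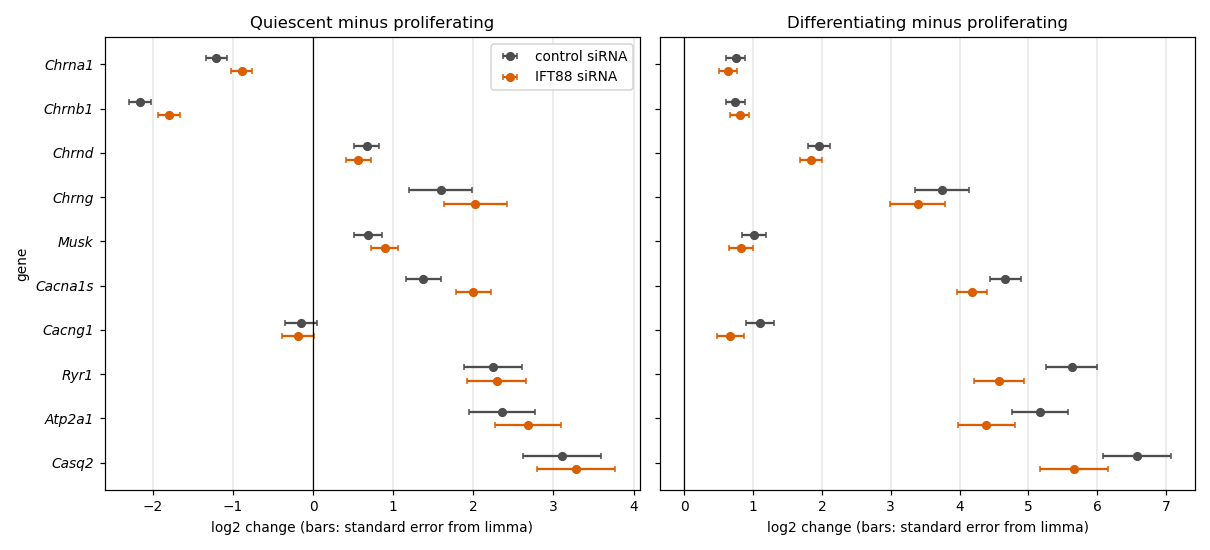
Log2 change (horizontal axis) of each gene from proliferating to quiescent cells (left) and from proliferating to differentiating cells (right), with control siRNA in grey and IFT88 siRNA in orange; bars are standard errors from limma. On the left Chrna1 and Chrnb1 lie below 0, Cacng1 near it and the other 7 genes above it, while on the right all 10 lie above 0.

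Suspension, which takes myoblasts out of the cycle without starting differentiation medium, split the genes. This comparison shares its proliferating arrays with that of differentiation. In control quiescent against proliferating cells 7 of 10 were higher (41.9% of all genes were called higher) and 2 of 10 lower (29.5% of all genes), with a median of 1.03 against 0.14 for all genes. In IFT88KD cells 7 were higher (39.8% of all genes) and 2 lower (29.3%), with a median of 1.44 against 0.11. In 7 control members every quiescent array was above every proliferating array (43.6% of all genes) and in 2 below (31.2%). Many genes changed between these states, and the members were set apart from each other by direction and size. Quantile normalisation and centring moved the median of all genes to 0.04 and -0.08 in control cells. Single members moved by more: under quantile normalisation Chrnd went from 0.67 to 0.34 and Cacna1s from 1.38 to 1.05. Ryr1 went from 2.25 to 1.99 and Chrnb1 from -2.16 to -2.34, while Chrna1 stayed at -1.21. The size of such changes therefore depends on the scaling.

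The 2 lower genes were the alpha and beta subunits. Chrnb1 went from 6.22, 6.63 and 6.49 on control proliferating arrays to 4.47, 4.23 and 4.15 on control quiescent arrays, and fell by 2.16 (SE 0.14, limma adjusted p = 7.65e-12). Chrna1 went from 9.41, 9.66 and 9.89 to 8.60, 8.29 and 8.45, and fell by 1.21 (SE 0.13, adjusted p = 5.28e-08). No quiescent array of either gene reached a proliferating array. In IFT88KD cells the falls were 1.80 (SE 0.14) and 0.89 (SE 0.13). Their promoters, printed above, both held 3 CANNTG matches, but so did those of Chrng and Musk, which rose. Of all promoters 17.6% held 3 or more.

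The gamma and delta subunits of the same receptor went the other way. Chrng stood at 5.89, 5.38 and 5.44 on control quiescent arrays, above the 3.15, 3.85 and 4.94 of proliferating cells, and rose by 1.59 (SE 0.40, limma adjusted p = 0.00117), or by 2.07 without the 2 proliferating arrays numbered 3. Chrnd stood at 3.31, 2.83 and 2.76 and rose by 0.67 (SE 0.16, adjusted p = 6.65e-04). The rise of Chrnd did not pass under quantile normalisation (0.34, adjusted p = 0.0533). Musk rose by 0.68 (SE 0.17, adjusted p = 0.00142), with quiescent values of 5.24, 5.10 and 5.31. As deposited, the genes of the gamma and delta chains thus rose where those of the alpha and beta chains of the same receptor fell. The rise of Chrng was seen only by its brightest probe set. Chrnd lay near the filter, at percentiles 37.7 to 42.0 in proliferating and 41.9 to 46.0 in quiescent control cells. In IFT88KD cells Chrng rose by 2.03 (SE 0.40), Chrnd by 0.56 (SE 0.16) and Musk by 0.89 (SE 0.17). That rise of Chrnd did not pass under quantile normalisation (0.21, adjusted p = 0.224) or centring (0.35, adjusted p = 0.053).

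Of the coupling genes Casq2 rose most, to 6.57, 6.48 and 6.46 on control quiescent arrays, by 3.11 (SE 0.49, limma adjusted p = 8.81e-06) or by 3.71 without the 2 proliferating arrays numbered 3. Atp2a1 reached 5.40, 5.31 and 5.49 and rose by 2.36 (SE 0.41, adjusted p = 2.84e-05). Ryr1 reached 5.49, 3.99 and 4.68 and rose by 2.25 (SE 0.37, adjusted p = 1.22e-05). The quiescent arrays lay above all proliferating arrays for the 3 genes, close together for Casq2 and Atp2a1 and spread widely for Ryr1. Cacna1s reached 3.64, 2.95 and 2.79 and rose by 1.38 (SE 0.22, adjusted p = 9.61e-06). Its partner Cacng1 did not pass the test, at 7.26, 7.05 and 7.32 against 7.02, 7.30 and 7.76, a change of -0.15 (SE 0.20, adjusted p = 0.509) whose arrays overlapped and whose sign turned to 0.05 without control proliferating replicate 3. In IFT88KD cells the rises were 3.28 for Casq2, 2.68 for Atp2a1, 2.29 for Ryr1 and 2.00 for Cacna1s, and Cacng1 had -0.19.

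Between quiescent and differentiating control cells 9 of 10 members were higher in differentiating cells (26.3% of all genes), by 1.25 for Cacng1 to 3.47 for Casq2, with a median of 2.48 against -0.13 for all genes. Chrnb1, which had fallen in suspension, differed by 2.90 (SE 0.14) and Chrna1 by 1.95 (SE 0.13). Musk was the exception, at 5.53, 5.48 and 5.62 in differentiating against 5.24, 5.10 and 5.31 in quiescent control cells, a difference of 0.33 (SE 0.17, limma adjusted p = 0.101). In all 10 members, Musk among them, every differentiating array was above every quiescent array (28.9% of all genes), and the Musk difference passed under quantile normalisation (0.46, adjusted p = 0.0244), centring (0.45, adjusted p = 0.0316) and with the compared groups only (0.33, adjusted p = 0.0171).

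Replating for 2 h was read on arrays whose values were lower as a whole. As deposited, 8 of 10 members were lower in replated than in quiescent control cells (66.9% of all genes were called lower) and 9 of 10 in IFT88KD cells (66.8%). The median change of all genes was -0.61 in control and -0.59 in IFT88KD cells, against -0.88 and -0.91 for the members. The counts are therefore near the background. Quantile normalisation brought the median of all genes to -0.10 and -0.08 and left 2 and 1 members lower (37.1% and 35.8% of all genes), and centring each array brought it to 0.25 and 0.26 and left 1 and 0 (20.9% and 20.3%).

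Relative to the median of all genes as deposited, Casq2 changed by -0.78 in control and -0.85 in IFT88KD cells, Chrng by -0.76 and -0.67, Chrnb1 by -0.64 and -0.27 and Chrna1 by -0.46 and -0.36. Ryr1 changed by 0.14 and 0.20, and its sign was above 0 under both other scalings. Chrna1 was the only member called lower with both siRNAs under quantile normalisation, by -0.73 (limma adjusted p = 4.51e-05) and -0.61 (adjusted p = 3.03e-04). Its control arrays went from 8.60, 8.29 and 8.45 to 7.65, 7.31 and 7.17. Chrnb1 was called lower in control cells under quantile normalisation (-0.40, adjusted p = 0.0214) and under centring (-0.39, adjusted p = 0.0214). As deposited, Atp2a1 in control cells missed the threshold (-0.90, adjusted p = 0.0514) and passed it with the replicate number as a block (adjusted p = 0.0305, which makes 9 members, 68.8% of all genes) and without control replated replicate 3 (-1.10, adjusted p = 0.0395). In IFT88KD cells it passed (-1.12, adjusted p = 0.0177), but not without quiescent replicate 1 (-1.03, adjusted p = 0.0533) or replated replicate 1 (-0.99, adjusted p = 0.0623), and Cacng1 did not pass without replated replicate 2 (-0.45, adjusted p = 0.0544).

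**Figure D3:**
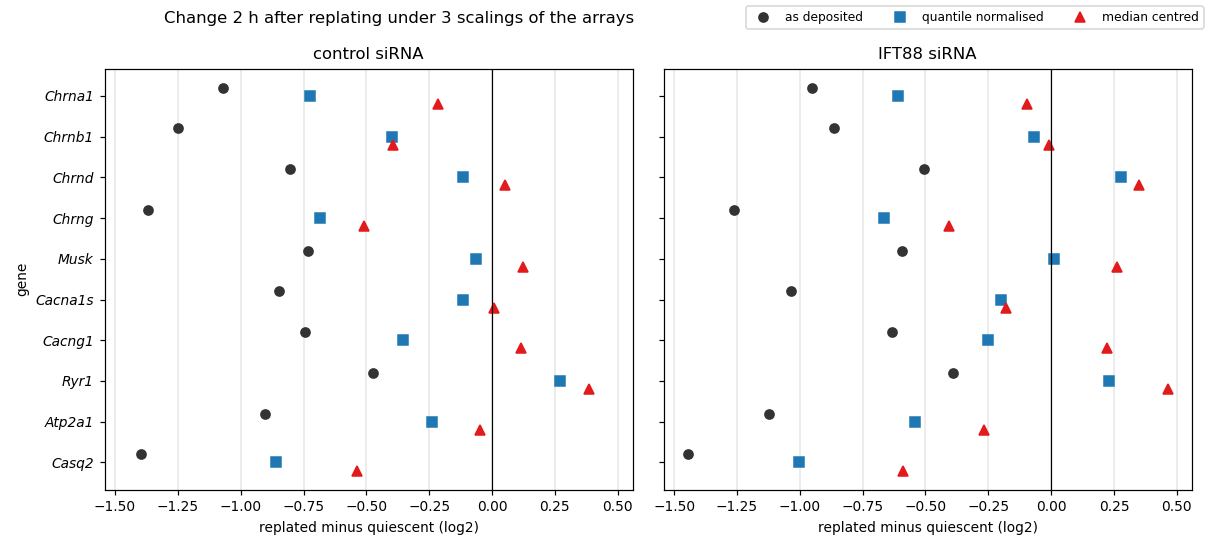
Log2 change (horizontal axis) from quiescent cells to cells replated for 2 h under 3 scalings of the arrays, as deposited (circles), quantile normalised (squares) and centred on each array's median (triangles), for control (left) and IFT88 siRNA (right). All 10 genes lie below 0 as deposited. Under both other scalings Ryr1 lies above 0 with either siRNA, and Chrna1, Chrnb1, Chrng, Atp2a1 and Casq2 lie below it.

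IFT88 siRNA was then compared with control siRNA within each state, where the arrays had like medians. The labels do not say that equal replicate numbers belong together. Arrays of equal number within a state deviated together across genes, so the numbers were taken as pairs. Each result is given first without pairs and then with the number as a block. Calls made only with the block rest on this inferred pairing. In proliferating cells 0 of 10 members passed in limma without the block (0.361% of all genes were called in either direction), and 0 had an unadjusted p under 0.05. The changes ran from -0.09 to 0.63. With the block Casq2 alone passed (0.63, SE 0.10, adjusted p = 0.00528; 0.954% of all genes were called higher), with differences of 0.35, 0.53 and 1.005 between arrays of equal number. These differences had an SD of 0.34, against 0.05, 0.03 and 0.13 in quiescent, replated and differentiating cells. The SE of 0.10 is shared by all 4 states, so the call rests partly on the closer pairs of the others. The 2 groups overlapped, since Casq2 spread from 2.25 to 4.60 in control and from 2.60 to 5.61 in IFT88KD cells. Without the block the difference was -0.16 without IFT88KD proliferating replicate 3, 0.0522 without control replicate 1, 1.23 without control replicate 3 and 1.34 without IFT88KD replicate 1.

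In quiescent cells the members lay mostly higher with IFT88 siRNA. Without the block 0 of 10 passed in limma (5.2% of all genes in either direction) and 3 had an unadjusted p under 0.05. With the block 6 of 10 were called higher (6.72% of all genes), and in 8 of 10 the IFT88KD array exceeded the control array of equal number in all 3 pairs (21.5% of all genes). Their median change was 0.34 against -0.01 for all genes.

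Casq2 read 6.57, 6.48 and 6.46 in control and 7.40, 7.22 and 7.30 in IFT88KD quiescent cells. It rose by 0.80 (1.74-fold) with an SE of 0.49 and a limma adjusted p of 0.463 without the block, and an SE of 0.10 and an adjusted p of 1.68e-04 with it. The groups did not overlap. The error is pooled over all 8 groups both without and with the block. With the 6 quiescent arrays alone the adjusted p was 0.00345. Atp2a1 read 5.40, 5.31 and 5.49 against 6.08, 5.83 and 5.80, a change of 0.50 (adjusted p = 0.634, 0.0267 with the block and 0.0378 with the quiescent arrays alone). Chrna1 read 8.60, 8.29 and 8.45 against 8.87, 8.65 and 8.80, a change of 0.33 (adjusted p = 0.2, and 0.0255 with the block). Neither gene's groups overlapped, nor did those of Musk, at 5.24, 5.10 and 5.31 against 5.37, 5.40 and 5.41 (0.18, adjusted p = 0.389 with the block). That made 4 of 10 members with every IFT88KD array above every control array (11.2% of all genes).

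Cacna1s, Ryr1 and Chrng overlapped between the groups but differed within the pairs. Cacna1s read 3.64, 2.95 and 2.79 against 4.24, 3.41 and 3.42, with pair differences of 0.60, 0.47 and 0.63 (mean 0.57, limma adjusted p = 0.17 without and 0.00342 with the block). It also passed without the block when control quiescent replicate 1 was left out (0.82, adjusted p = 0.0341), while without IFT88KD quiescent replicate 1 the change was 0.29 (adjusted p = 0.629). Ryr1 read 5.60, 4.79 and 5.29 on the IFT88KD arrays, with uneven pair differences of 0.11, 0.80 and 0.61. Its change was 0.51 (limma adjusted p = 0.0204 with the block). Without the block it was 0.14 without control quiescent replicate 2, 0.32 without IFT88KD quiescent replicate 1 and 0.89 without control quiescent replicate 1. Chrng changed by 0.35 (adjusted p = 0.0353 with the block), with 6.14, 5.87 and 5.74. The members that did not pass with the block were Chrnb1 at 0.29 (adjusted p = 0.0941), Musk, Cacng1 at 0.05 (adjusted p = 0.776) and Chrnd at -0.09 (adjusted p = 0.677).

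In replated cells all 10 changes were above 0 (0.16 to 0.75), with a median of 0.41 against 0.01 for all genes. Chrnb1 was the only member called without the block, by 0.68 (SE 0.14, limma adjusted p = 0.00763; 1.5% of all genes were called higher). It read 3.21, 2.71 and 3.18 in control and 3.56, 3.73 and 3.83 in IFT88KD cells, and the groups did not overlap. It did not pass without control replated replicate 2, the lowest array (0.52, adjusted p = 0.0711), or with the arrays of the compared groups only (0.68, adjusted p = 0.108). With the block 6 of 10 were called higher (6.27% of all genes): Chrnb1, Casq2 by 0.75 (adjusted p = 5.08e-04), Ryr1 by 0.59 (adjusted p = 0.0129), Chrng by 0.45 (adjusted p = 0.0124), Chrna1 by 0.44 (adjusted p = 0.00665) and Cacna1s by 0.38 (adjusted p = 0.038). These 6 were also the members whose arrays did not overlap (9.41% of all genes). Chrna1 passed without the block, too, when control replated replicate 1 was left out (0.58, adjusted p = 0.0204). Casq2 passed with the 6 replated arrays alone (adjusted p = 0.038). The count without the block was 0 without control replated replicate 2 and 2 without control replated replicate 1.

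Ryr1 read 4.45, 4.03 and 4.27 in control and 5.003, 4.63 and 4.87 in IFT88KD replated cells, and its pair differences of 0.56, 0.61 and 0.60 were nearly equal. Casq2 read 5.15, 5.22 and 4.95 against 5.88, 6.01 and 5.69, with pair differences of 0.73, 0.78 and 0.74. Both genes had all IFT88KD arrays above all control arrays. Other genes called had less even pairs: 0.68, 0.02 and 0.45 for Cacna1s and 0.36, 1.02 and 0.65 for Chrnb1. The second Cacna1s pair thus hardly differed. Chrnd (0.21), Musk (0.32), Cacng1 (0.16) and Atp2a1 (0.28) did not pass with the block, and their arrays overlapped. In 7 of 10 members all 3 pairs were above 0 (22% of all genes).

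In differentiating cells all 10 changes were under 0, from -0.60 to -0.00262, with a median of -0.32 against 0.01 for all genes. Ift88 itself had means of 3.80 ± 0.11 in control and 3.79 ± 0.25 in IFT88KD cells of this state, so its RNA was not seen to be lowered. Without the block 0 of 10 passed in limma (0.14% of all genes in either direction) and 1 had an unadjusted p under 0.05. With the block 1 was called lower (0.523% of all genes), Cacna1s, which read 6.55, 6.35 and 6.36 in control and 6.06, 5.97 and 5.62 in IFT88KD cells. It changed by -0.54 (SE 0.22, adjusted p = 0.928 without the block; SE 0.11, adjusted p = 0.0328 with it).

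Every IFT88KD differentiating array was below every control array in 5 of 10 members (4.8% of all genes): Cacna1s, Atp2a1, Cacng1, Musk and Casq2. Atp2a1 read 8.22, 8.22 and 8.18 in control and 7.58, 7.77 and 7.47 in IFT88KD cells, a difference of -0.60 (limma adjusted p = 0.0554 with the block). Ryr1 differed by -0.59 (adjusted p = 0.0529 with the block), Chrng by -0.44 (adjusted p = 0.0605) and Cacng1 by -0.34 (adjusted p = 0.126), none of which passed. In 7 of 10 members all 3 pairs were below 0 (18.9% of all genes). Chrna1 (-0.10), Chrnb1 (-0.00262) and Chrnd (-0.10) were nearest to 0, and their arrays overlapped.

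**Figure D4:**
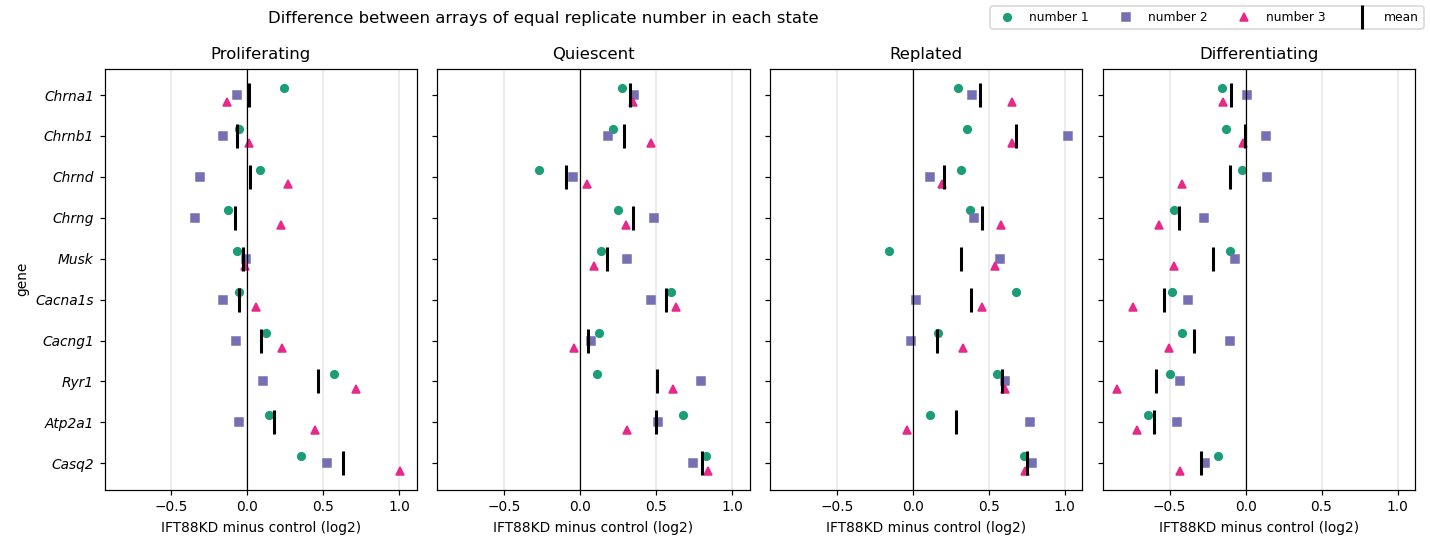
Difference between the IFT88KD and control arrays of equal replicate number (horizontal axis, log2) for each gene in the 4 states; symbols are replicate numbers and black bars the means of 3. The Casq2 differences of 0.74 to 0.84 in quiescent and 0.73 to 0.78 in replated cells lie above 0, and its differences of -0.43 to -0.18 in differentiating cells lie below it.

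Whether the siRNA differences differed between states was tested as a difference of differences. For quiescent minus proliferating cells, replated minus quiescent cells and differentiating minus proliferating cells 0 of 10 members passed in limma without the block in each, and 0 had an unadjusted p under 0.05 in each (1.24%, 0.0582% and 0.0465% of all genes were called). With the block Cacna1s passed in the first (0.62, adjusted p = 0.0392; 2.29% of all genes were called higher), 0 members in the second (0.14% in either direction), and Ryr1 (-1.06, adjusted p = 0.0274) and Casq2 (-0.92, adjusted p = 0.0144) in the third (0.361% of all genes were called lower). Without the 2 proliferating arrays numbered 3 and without the block the Ryr1 and Casq2 values were -0.93 and -0.73. Single proliferating arrays moved them further: without the block, the Ryr1 value was -0.62 without IFT88KD replicate 3, and the Casq2 value was -0.13 without IFT88KD replicate 3, -0.34 without control replicate 1, -1.52 without control replicate 3 and -1.63 without IFT88KD replicate 1. The Cacna1s value of the first difference was 0.35 without IFT88KD quiescent replicate 1.

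The difference between differentiating and quiescent cells, a contrast added after the values were seen, was under 0 for all 10 members. Without the block 0 of 10 passed in limma (1.13% of all genes) and 3 had an unadjusted p under 0.05. With the block 5 were called lower (3.04% of all genes), at similar sizes: Cacna1s by -1.10 (adjusted p = 0.00126), Ryr1 by -1.10 (adjusted p = 0.00399), Atp2a1 by -1.10 (adjusted p = 0.00489), Casq2 by -1.09 (adjusted p = 8.57e-04) and Chrng by -0.78 (adjusted p = 0.00552). Chrna1 had -0.42 (adjusted p = 0.0701), and Chrnd -0.01 (adjusted p = 0.99). Cacna1s also passed without the block when control quiescent replicate 1 was left out (-1.36, adjusted p = 0.0231), and Atp2a1 (adjusted p = 0.00504) and Casq2 (adjusted p = 0.005) did with the arrays of the compared groups only. The genes called thus lay higher with IFT88 siRNA in suspension and had means below control in differentiation medium. In the fit of all 24 arrays with equal weights, these calls were made with the block and not without it.

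Over the 24 arrays the members followed more than 1 pattern. Chrna1 and Chrnb1 correlated at r = 0.985 with each other but at 0.390 and 0.307 with Musk, and Atp2a1 and Casq2 correlated at 0.989. These values describe 24 arrays that share 4 states and their scaling. The genes outside the set most like the mean of the standardised members were Apobec2 (r = 0.989), Neurl1a (0.988), Sgca (0.987), Tmem38a (0.987) and Cav3 (0.986), in an order set by small differences. Sgca encodes a sarcoglycan of the muscle membrane, Tmem38a an ion channel of the reticulum and Cav3 the muscle caveolin. For single members the gene outside the set most alike was Eno3, the muscle enolase, for Chrna1 (0.988), Cdh15, the muscle cadherin, for Chrnb1 (0.990), Tmem38a for Chrnd (0.983) and Tnnt3, a fast troponin T, for Chrng (0.986). It was Cd59a for Musk (0.946), Myom1, a myomesin of the M-band, for Cacna1s (0.993), C1qtnf3 for Cacng1 (0.974), Myh7, the slow myosin, for Ryr1 (0.989), and Mybph, a myosin-binding protein, for Atp2a1 (0.989) and Casq2 (0.996).

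The partners of these genes were read from lists, of which up to 4 genes past the threshold are named by size; a gene that was the only one to fall in its list is named for that, chosen after its values were seen. Of 12 tested genes of synapse assembly, control quiescent cells had 7 higher and 1 lower than proliferating cells. For these lists the shares of all genes were 41.9% higher and 29.5% lower in quiescent cells, and 24.5% higher in differentiating cells. The share lower in differentiating cells is not given, so list genes lower there have no background beside them. With IFT88 siRNA in quiescent cells 5.2% of all genes were called in either direction. Higher were Ache, which encodes acetylcholinesterase, by 2.50 (SE 0.17), Dtna, a dystrobrevin, by 1.51 (SE 0.14), Agrn, the activator of Musk, by 1.24 (SE 0.10) and Lamb2, a synaptic laminin, by 1.21 (SE 0.15). The lower one was Rapsn, whose product rapsyn anchors the receptor under the nerve ending, which fell by 0.99 (SE 0.18, limma adjusted p = 3.47e-05), from a mean of 6.66 ± 0.34 to 5.67 ± 0.11. Rapsn thus went the way of Chrna1 and Chrnb1 in suspension. In differentiating cells 8 were higher and 1 lower, led by Erbb3, a neuregulin receptor, by 4.88 (SE 0.30), Dtna by 1.55 (SE 0.14), Lrp4, the agrin receptor that acts with Musk, by 1.41 (SE 0.23) and Rapsn by 1.09 (SE 0.18). Gabpa, which encodes an ETS factor, was lower by -0.30 (adjusted p = 0.0381), though not under quantile normalisation (-0.20, adjusted p = 0.141). With IFT88 siRNA Agrn was lower in quiescent cells by -0.38 (SE 0.10, adjusted p = 0.0324). Of 11 subunit genes of neuronal receptors 9 had a probe set, and all 9 stayed under the filter.

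Of 13 tested partners in the triad, the junction of membrane and reticulum, 6 were higher and 1 lower in quiescent than in proliferating control cells, shares near or below those of all genes. Trdn, which encodes the Ryr1 partner triadin, rose by 3.65 (SE 0.30), Fkbp1b, a binding protein of ryanodine receptors, by 1.33 (SE 0.18), Tmem38a by 1.26 (SE 0.29) and Cacna2d1, another subunit of the dihydropyridine receptor, by 1.09 (SE 0.26), while the related Fkbp1a fell by 0.45 (SE 0.15). In differentiating cells 8 were higher and 1 lower: Cav3 rose by 5.33 (SE 0.31), Trdn by 4.92 (SE 0.30), Tmem38a by 4.01 (SE 0.29) and Cacnb1, the beta subunit of the same channel, by 3.25 (SE 0.22), and Asph fell by 1.15 (SE 0.12). The share called higher on differentiation, 8 of 13, stands beside 24.5% of all genes.

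Of 10 tested genes of calcium storage and removal 6 were higher in suspension, led by S100a1, a calcium sensor protein, by 3.04 (SE 0.26), Hrc, a calcium-binding protein of the reticulum, by 2.78 (SE 0.26), Slc8a1, the sodium-calcium exchanger, by 2.58 (SE 0.20) and Casq1, the calsequestrin of fast muscle, by 2.18 (SE 0.23). In differentiating cells 6 were higher, led by Hrc by 5.70 (SE 0.26) and Casq1 by 4.35 (SE 0.23), and Atp2a2, the pump of slow muscle and other cells, was lower by -0.31 (limma adjusted p = 0.0278), though not under quantile normalisation (-0.21, adjusted p = 0.126). Casq1 was also higher with IFT88 siRNA in quiescent cells, with means of 3.64 ± 0.13 in control and 4.67 ± 0.64 in IFT88KD cells (1.03, SE 0.23, adjusted p = 0.0102). The 2 calsequestrin genes thus both had higher IFT88KD means in suspension, Casq1 past the threshold without the block and Casq2 with it. Of 5 other calcium channel genes tested, Itpr2, a release channel of the IP3 receptor family, rose by 2.75 (SE 0.16) in suspension and was lower with IFT88 siRNA there by -0.66 (SE 0.16, adjusted p = 0.013). Ryr3, a second ryanodine receptor, fell by 1.15 (SE 0.32) in suspension, where Ryr1 rose, and rose by 1.74 (SE 0.32) on differentiation. Of 5 membrane excitability genes 2 rose in suspension, near the share of all genes, Atp1b1, a sodium pump subunit, by 1.75 (SE 0.29) and Ank3, an ankyrin, by 1.68 (SE 0.13), and Kcnj12, a potassium channel, fell by 0.90 (SE 0.19).

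Among 7 tested myogenic regulators, Myod1 fell in suspension by 1.29 (SE 0.19, limma adjusted p = 3.2e-06), Six4 by 0.86 (SE 0.17) and Myf5 by 0.57 (SE 0.13), while Mef2d rose by 0.97 (SE 0.13). On differentiation 5 rose, among them Mef2c by 3.78 (SE 0.28), Myog by 3.74 (SE 0.59), Mef2a by 1.66 (SE 0.14) and Mef2d by 1.46 (SE 0.13), and Myf5 fell by 1.15 (SE 0.13). Mef2c was higher with IFT88 siRNA in quiescent cells, at 5.79 ± 0.08 against 4.75 ± 0.41 (1.04, SE 0.28, adjusted p = 0.033), and with the block 4 of the 7 were higher there (6.72% of all genes). Of 4 activity-linked regulators tested, Gadd45a rose by 2.56 (SE 0.21) and Hdac5, a deacetylase that acts on Mef2 factors, by 1.36 (SE 0.12) in suspension, and Etv4 fell by 1.17 (SE 0.19).

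Markers of cell types moved beside these results, and their part in them was not tested. Of all genes 41.9% were called higher and 29.5% lower in control quiescent than in proliferating cells, and 24.5% higher in differentiating cells. All 8 myotube markers were higher in control quiescent than in proliferating cells (median change 2.52) and in differentiating cells (median 5.50). Their summed linear level in control and IFT88KD cells was 119 to 1034 and 339 to 1813 when proliferating, 2164 to 3256 and 3269 to 5458 when quiescent, 1003 to 1506 and 1895 to 2620 when replated, and 15772 to 18857 and 12857 to 16873 when differentiating. It was higher with IFT88 siRNA on every array in quiescent and replated cells and overlapped in the other states. With the block 5, 6, 8 and 0 of the 8 were called higher with IFT88 siRNA in proliferating, quiescent, replated and differentiating cells, where 0.954%, 6.72% and 6.27% of all genes were called higher in the first 3. Of 6 tested myoblast markers 5 were lower in suspension (median change -1.31). With the block 5 of the 6 were higher with IFT88 siRNA in quiescent cells (median 0.36; summed level 610 to 706 in control and 820 to 908 in IFT88KD cells), and 4 were lower in the difference between differentiating and quiescent cells. With the block 6 of the 8 myotube markers were lower in that difference too, where 3.04% of all genes were called lower. Of the myoblast markers, Pax7, which marks muscle stem cells, lay under the filter percentile in all groups. In suspension all 3 tested macrophage markers rose in control cells (median 1.73; summed level 28.6 to 36.3 in proliferating and 284 in quiescent cells). Of 3 tested fibroblast markers 2 rose and 1 fell there (median 2.73; summed level of 5 markers 54.4 to 96.3 and 507 to 530), with Thy1 and Dpt under the filter percentile in all groups. The 1 tested adipocyte marker and the 1 tested bone and cartilage marker also rose, by 1.05 and 1.73. Adipoq and Acan of these lists lay under the filter percentile in all groups. Of 2 tested neuron and Schwann cell markers 1 was lower in suspension (median -1.01). The summed level of 4 such markers was 51.3 to 61.5 in proliferating and 18.4 to 22.7 in quiescent control cells. The macrophage markers tested (3 of 5) had 2 lower with IFT88 siRNA in quiescent cells. In quiescent cells 5.2% of all genes were called in either direction. The summed level of the 5 macrophage markers was 284 in control and 101 to 114 in IFT88KD quiescent cells. In replated cells it was 124 to 141 in control and 54.8 to 65.9 in IFT88KD cells. The defining markers Adgre1 and Ptprc lay under the filter percentile in every group. Of 5 heart markers Myh6, Nppa and Myl7 lay under the filter percentile in all groups, and the other two, Tnni3 and Nkx2-5, were tested; neither passed in any siRNA comparison or between quiescent or differentiating and proliferating control cells. In the proliferating and differentiating groups 1 heart marker lay above the filter percentile on all 3 arrays. The endothelial and epithelial markers, 3 each, lay under it in all groups.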

How the data were processed

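RNA of 24 samples was measured, 3 arrays in each of 8 groups. The deposited table holds log2 expression values of 22690 probe sets, made with GCOS, Affymetrix Expression Console and affy per the submitters' processing notes. Versions, the normalisation, and whether the states were normalised together are not given in the sources used here. No raw intensities were analysed, and 3 arrays a group limit the precision.

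Groups came from the labels. All 24 arrays entered 1 model with 8 group coefficients (limma 3.58.1, R 4.3.3), 15 contrasts were taken, with Benjamini-Hochberg adjustment across 8597 genes in each. SE is limma's standard error. Genes were represented by their brightest probe set, with the x_at kind set aside. The members and lists were chosen with earlier results of these data known. Every member was named, up to 4 genes of a list past the threshold by size, and by likeness the 5 genes nearest to the mean profile and the nearest to each member. Symbols follow the array's annotation, updated through RefSeq identifiers, with 29 identifiers not found.

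Arrays of equal number within a state deviated together across genes (r from 0.450 to 0.671 in differentiating, 0.304 to 0.708 in proliferating, 0.280 to 0.487 in replated and 0.252 to 0.487 in quiescent cells; at most 0.134 for unequal numbers), so the numbers were taken to pair them, and the block is the number within a state. Between states, equal numbers correlated at 0.155 to 0.421 for replated and quiescent and at 0.164 to 0.284 for differentiating and proliferating control cells, but at -0.03 to 0.07 for quiescent and proliferating control cells. There the block is the number across states. Alternatives were quantile normalisation, centring, 2 other filters, 2 other ways to combine probe sets, limma's trend and robust options, array weights, the block, the compared groups only, and leaving out each array. The fit without the block was tested on simulated data for the siRNA comparison in differentiating cells. The simulated arrays had no pairs, and the fit with the block was not tested in this way. Plots were drawn with matplotlib 3.10.9 in Python 3.11.15.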

Additional observations from a re-analysis of the deposited data

How the results depend on the processing

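In all 4 changes from proliferating to quiescent or differentiating cells the counts of members called stayed within 1.5 times under the alternatives run. The quiescent counts, 9 in the fit described above, ran from 8 to 9. The differentiating counts, 10 in that fit, ran from 9 to 10. The counts for replating moved further: the control count of 8 became 2 under quantile normalisation and 1 under centring. The IFT88KD count of 9 became 1 and 0. Signs turned there under quantile normalisation for Ryr1 in control (0.27) and for Chrnd (0.28), Musk (0.0129) and Ryr1 (0.23) in IFT88KD cells. Under centring they turned for Chrnd (0.0527), Musk (0.12), Cacna1s (0.0079), Cacng1 (0.11) and Ryr1 (0.38) in control and for Chrnd (0.35), Musk (0.26), Cacng1 (0.22) and Ryr1 (0.46) in IFT88KD cells. Those scalings shift all genes by construction.

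For the siRNA comparisons the replicate block moved the count of members called from 1 to 6 in replated cells, 0 to 6 in quiescent cells, and 0 to 1 in proliferating and in differentiating cells. For the differences of effects it moved 0 to 1 (quiescent minus proliferating), 0 to 2 (differentiating minus proliferating) and 0 to 5 (differentiating minus quiescent). It changed 1 call between states, Atp2a1 on replating in control cells, and no call of a member beside these. Array weights gave 2 in quiescent and 3 in replated cells and 1 for differentiating minus quiescent, and the compared groups only gave 2 in quiescent cells and 2 for differentiating minus quiescent; the cause was not tested.

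Leaving out each array gave counts of 0 to 1 in quiescent cells, 0 to 2 in replated cells and 0 to 1 for differentiating minus quiescent. It gave -0.16 to 1.34 for the Casq2 difference in proliferating cells, -0.32 to 0.0515 for Cacng1 from proliferating to quiescent control cells and -0.34 to 0.0823 in IFT88KD cells. Without the 2 proliferating arrays numbered 3, an alternative chosen after seeing the data, these Cacng1 values were 0.0515 and 0.0823. The distance of the low signals of Cacna1s, Chrnd, Ryr1, Casq2 and Atp2a1 in proliferating cells from background limits the size of their changes.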
